A study of Mus musculus with 2 samples.

Results

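The HoxC cluster is a row of 9 homeobox genes on mouse chromosome 15, which lie on the plus strand in the order Hoxc13, Hoxc12, Hoxc11, Hoxc10, Hoxc9, Hoxc8, Hoxc6, Hoxc5 and Hoxc4. Methylation of its CpGs was taken from reduced-representation bisulfite sequencing (RRBS), in which restriction fragments are treated with bisulfite so that only methylated cytosines are still read as cytosine. The cluster was defined by position, as every measured CpG between 102745001 and 102870001 of the mm9 (NCBIM37) build, and held 720 of the 1790826 CpGs measured across the genome. These were 27.7% of the 2599 CpGs in the sequence of the cluster, and the longest stretch without a measured CpG was 6103 bp. The libraries came from mouse embryonic fibroblasts (MEFs) that were Dnmt1+/+ or Dnmt1-/-, with 1 library of each. Both lines were homozygous null for trp53, and the Dnmt1-/- line was homozygous for a hypomorphic allele of Dnmt1, so that it was not a complete loss of the gene. Age of the embryos and passage of the cells are not given in the sources used here, and a table of methylation alone does not allow the cell type or the level of Dnmt1 to be checked. With no replicates, every difference below is a difference between these libraries and has no replicate check.

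Hox genes encode transcription factors that specify position along the body axis, and the order of the genes along a cluster follows the order of their expression from the anterior to the posterior of the embryo. In HoxC, Hoxc4 to Hoxc6 lie at the anterior end and Hoxc10 to Hoxc13 at the posterior end. Hox clusters are rich in CpGs and are repressed in many cells by Polycomb Repressive Complex 2 (PRC2), which trimethylates lysine 27 of histone H3, while their CpG islands usually carry little DNA methylation. Dnmt1 copies CpG methylation to the new DNA strand after replication.

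In the Dnmt1-/- library, methylation of the anterior end of HoxC was several fold higher than in the Dnmt1+/+ library, at Hoxc6, Hoxc5, Hoxc4 and the sequence between them, whereas the posterior end was low in both. Mean methylation of CpGs from the start of Hoxc6 to Hoxc4 was 11.3% in Dnmt1+/+ and 55.7% in Dnmt1-/- over 114 CpGs. From Hoxc13 to the sequence upstream of Hoxc6, the means were 11.5% and 9.67% over 374 CpGs. The division at the start of Hoxc6 was chosen after the values were seen. These means leave out CpGs that lie in CCGG or TCGA, the recognition sequences of MspI and TaqI, which are described separately below. The remaining 488 CpGs are called other CpGs.

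Stretches of 150 bases show how the difference appeared at single CpGs. They are given 5′ to 3′ on the plus strand of NCBIM37, with the CG of each measured CpG in capitals. The first, at chr15:102865346-102865495 in coding exon 1 of Hoxc4, comes from the window in which Dnmt1-/- exceeded Dnmt1+/+ the most. The second, at chr15:102785210-102785359 in coding exon 1 of Hoxc11, represents the promoter that was lowest in both libraries among those with at least 10 other CpGs. The third, at chr15:102858128-102858277 between Hoxc5 and Hoxc4, and the fourth, at chr15:102845402-102845551 in the intron of Hoxc5, were chosen after their values were seen, to show higher levels outside genes and a steep local change.
Hoxc4 exon: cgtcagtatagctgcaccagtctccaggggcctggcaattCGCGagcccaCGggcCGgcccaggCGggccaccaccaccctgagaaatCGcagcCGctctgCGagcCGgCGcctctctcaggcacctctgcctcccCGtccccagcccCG
Hoxc11 exon: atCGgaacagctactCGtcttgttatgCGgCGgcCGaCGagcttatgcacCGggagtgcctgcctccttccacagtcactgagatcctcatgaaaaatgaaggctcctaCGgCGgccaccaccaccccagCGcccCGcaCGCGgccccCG
Between Hoxc5 and Hoxc4: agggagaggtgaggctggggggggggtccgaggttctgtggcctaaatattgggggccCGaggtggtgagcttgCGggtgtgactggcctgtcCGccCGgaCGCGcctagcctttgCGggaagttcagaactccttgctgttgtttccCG
Hoxc5 intron: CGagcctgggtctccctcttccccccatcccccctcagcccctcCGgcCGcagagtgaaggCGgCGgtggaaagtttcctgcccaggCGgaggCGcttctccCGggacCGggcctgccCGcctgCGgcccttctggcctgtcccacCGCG

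In the Hoxc4 stretch, 12 of 13 CpGs were measured and 10 of these were other CpGs. The 10 were at 8% or less in Dnmt1+/+ and between 35.0% and 79.5% in Dnmt1-/-, without overlap, and each of them was called higher. The CpG at base 95 of the stretch had 8 methylated calls of 100 in Dnmt1+/+ and 62 of 78 in Dnmt1-/-. The CpG at base 43, the lowest of the 10 in Dnmt1-/-, had 0 of 32 and 7 of 20.

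In the Hoxc11 stretch, all 14 CpGs were measured. Its 13 other CpGs reached at most 13.9% in Dnmt1+/+ and 10.4% in Dnmt1-/-, and 3 of them, at bases 16, 28 and 31, were called lower. Depth was doubled at these 3, and with calls halved there only the CpG at base 16 was called. The single CpG of the stretch that lies in CCGG or TCGA was at 59.2% and 59.4%.

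Between Hoxc5 and Hoxc4, the 7 other CpGs of the stretch were at 3.03% to 13.3% in Dnmt1+/+ and at 16.7% to 78.7% in Dnmt1-/-, and 6 of the 7 were called higher. In the Hoxc5 intron, the CpG at base 1, inside the hairpin of Mir615, had 0 of 100 methylated calls in Dnmt1+/+ and 2 of 88 in Dnmt1-/-. At bases 49, 62 and 65 the Dnmt1-/- library was at 54.3%, 55.7% and 57.1%. At bases 88 and 94 it reached 92.9% and 87.9%, against 19.0% and 5.22% in Dnmt1+/+. Levels in Dnmt1-/- then declined to 18.2% at base 149, where depth was only 11 calls. Thus the level in Dnmt1-/- went from close to 0 to over 80% and down to 18.2% within these 150 bases, while no CpG of it that was outside CCGG and TCGA exceeded 19.0% in Dnmt1+/+.

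**Figure D1:**
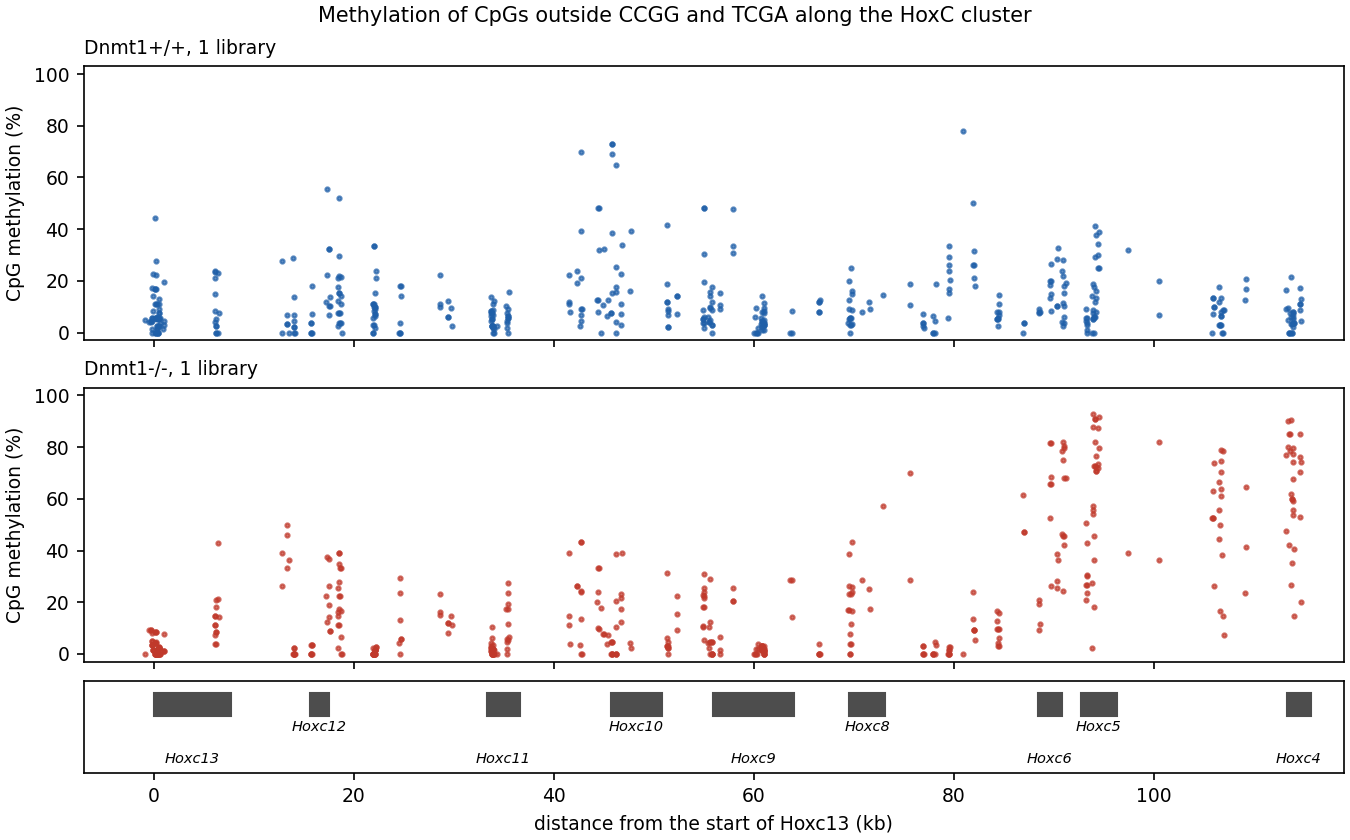
Methylation of each of the 488 other CpGs (vertical axis, percent of calls) against distance from the start of Hoxc13 (horizontal axis, kb), with the Dnmt1+/+ library above, the Dnmt1-/- library below and the genes as bars. Points at the right end, from Hoxc6 to Hoxc4, average 11.3% in Dnmt1+/+ and 55.7% in Dnmt1-/-, while most points to the left are low in both.

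Across the whole cluster, mean methylation of other CpGs was 11.4% in Dnmt1+/+ and 20.4% in Dnmt1-/-. With calls pooled over CpGs, the Wilson intervals (95%, for counting error only) were 10.3 to 10.9% and 17.3 to 18.1%. Over all other CpGs of the genome the means went the other way, from 45.0% to 15.1%. In Dnmt1+/+, 410 of the 488 HoxC CpGs (84.0%) were at 20% or less and 0 were at 80% or more. In Dnmt1-/-, 312 were at 20% or less and 18 were at 80% or more. All of these 18 were among the CpGs called higher.

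Each CpG was tested between the libraries with Fisher's exact test, and p-values were adjusted over the 1790826 CpGs by the Benjamini-Hochberg method, with a threshold of 0.05. Of the 720 HoxC CpGs, 148 were called higher in Dnmt1-/- (20.6%), where 0.462% of all CpGs were called higher. In the other direction, 50 were called lower (6.94%), where 43.7% of all CpGs were called lower. CpGs that are low in Dnmt1+/+ have little room to be called lower. The median in Dnmt1+/+ was 14.1% in HoxC and 82.4% genome-wide, and no comparison with equally low CpGs was made. For other CpGs, 123 of 488 were called higher (25.2%, against 0.635% of such CpGs genome-wide) and 43 were called lower (8.81%, against 44.2%). Of the 123, 93 lay from Hoxc6 to Hoxc4 and 30 lay before Hoxc6. All 43 that were called lower lay before Hoxc6, and the last of them was at position 102832446. The CpGs called higher went from a median of 7.89% to 55.7%, and those called lower from 15.7% to 1.36%.

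The same CpGs were also averaged in windows of 500 bp that held 5 or more other CpGs. Of 40 such windows in HoxC, the difference was 25 percentage points or more upwards in 9 (22.5%, against 0.397% of 48670 windows genome-wide). A single window was lower by as much (2.50%, against 38.7%), and 30 lay within these limits. The 9 higher windows were at 4.07% to 18.8% in Dnmt1+/+ and at 31.5% to 68.8% in Dnmt1-/-. They were the 9 windows closest to the anterior end, and the 31 windows before Hoxc6 differed by 8.47 points or less upwards. The 86 CpGs of the 9 windows had a median depth of 57.0 (Dnmt1+/+) and 34.0 (Dnmt1-/-), compared with 47.0 and 44.0 at the 285 CpGs of the 30 windows within the limits. At a depth of at least 20 in both libraries, 8 of 34 windows were higher and 1 was lower. The share of all windows genome-wide was not computed at that depth. When every CpG was thinned to 10 calls per library, 31 HoxC CpGs were called higher, 30 of them among the 148, and 3 were called lower, all among the 50, against 0.0359% and 16.7% of all CpGs genome-wide.

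Depth differed in steps between neighbouring CpGs. At 82 of the 488 other CpGs, depth in both libraries was 2 times that of a measured CpG within 50 bp, to within 2%, and 17 of these lay from Hoxc6 to Hoxc4. Why depth was doubled there was not tested. If the same reads were counted 2 times at these CpGs, p-values and intervals there are too small and too narrow, so calls were also halved, a setting chosen after seeing the data. With calls halved at the 82 CpGs, 141 of the 148 HoxC CpGs called higher and 42 of the 50 called lower were still called, against 0.405% and 43.2% of all CpGs genome-wide. With calls halved at every CpG, 87 and 19 were still called, against 0.147% and 26.0%. From Hoxc6 to Hoxc4, 89 and 68 of the 93 other CpGs called higher were called under these settings, and before Hoxc6, 35 and 18 of the 43 called lower and 27 and 7 of the 30 called higher.

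**Figure D2:**
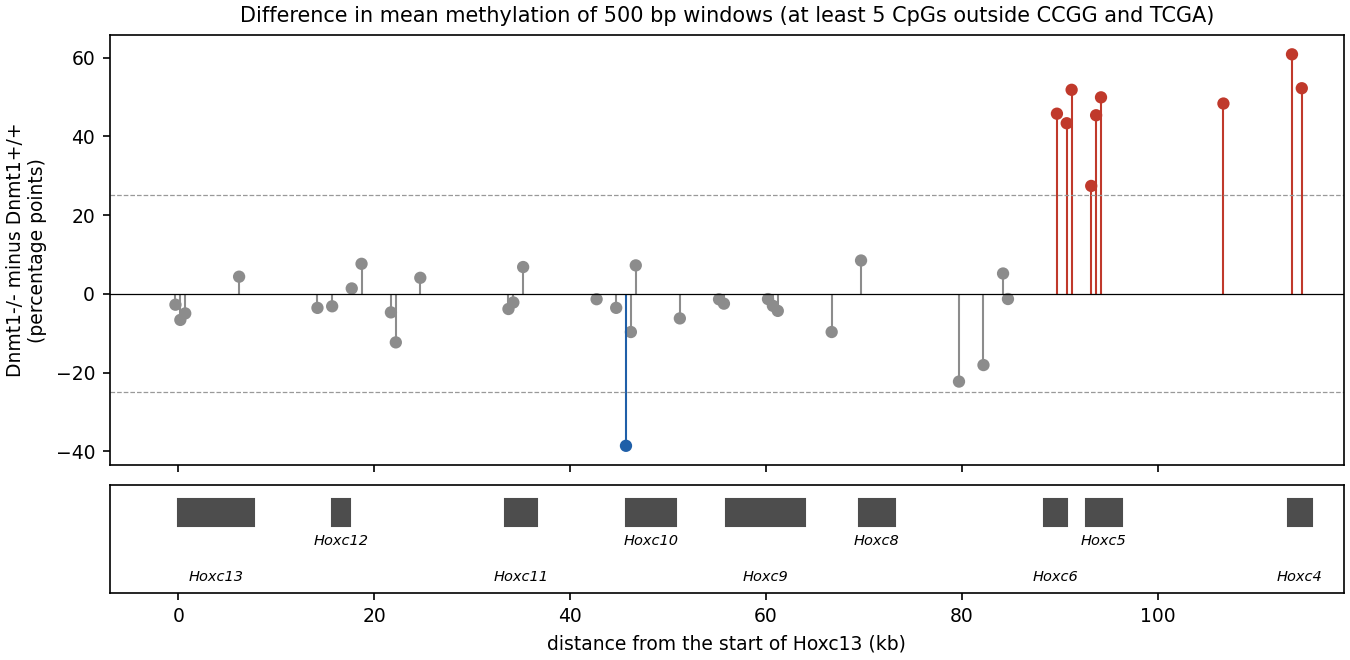
Difference in mean methylation, Dnmt1-/- minus Dnmt1+/+ (vertical axis, percentage points), of the 40 windows of 500 bp against distance from the start of Hoxc13 (horizontal axis, kb), with dashed lines at 25 points in each direction and the genes as bars. The 9 windows from Hoxc6 to Hoxc4 are all above the upper line, and 1 window at the start of Hoxc10 is below the lower line.

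Hoxc4, the most anterior gene of the cluster, had the greatest difference. Within 1 kb of the start of its coding transcript (102864826), 23 other CpGs had a mean of 5.58% in Dnmt1+/+ and 62.7% in Dnmt1-/-, and 22 of them were called higher. The lowest and highest CpGs were at 0.0% and 21.5% in Dnmt1+/+, and at 14.8% and 90.5% in Dnmt1-/-. The median CpG had 57.0 calls (Dnmt1+/+) or 27.0 calls (Dnmt1-/-), and among the 18 CpGs with a depth of at least 20 in both the difference was 52.6 points. In exon 2, which encodes the homeodomain, 6 other CpGs averaged 10.9% and 63.2%, and 5 were called higher. The CpG at 102866195 in this exon was among the 3 largest rises at a depth of at least 20 (2 of 23 methylated calls against 23 of 27, adjusted p = 5.75e-07 by Fisher's exact test). At the start of the longer transcript of Hoxc4, which begins far upstream at 102849367, a single other CpG was measured, and its levels of 31.8% and 38.9% were not called different.

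Hoxc5 was the next highest. Its first coding exon held the 8 other CpGs measured within 1 kb of the start (102844246), which averaged 4.07% in Dnmt1+/+ and 31.5% in Dnmt1-/-, all 8 called higher. Downstream within the gene the level in Dnmt1-/- increased further, to 50.01% over 11 CpGs of the intron (8.10% in Dnmt1+/+), 78.3% over 8 CpGs of coding exon 2 (20.5%) and 80.8% over 5 CpGs of the 3′ UTR (30.6%). In Dnmt1+/+ the order of these features was the same, at lower levels. Depth in coding exon 2 was low, at a median of 27 and 14 calls, and 7 of its 8 CpGs were called higher. The CpG at 102845495 in the intron, at base 94 of the printed stretch, had the largest rise of the named CpGs, from 6 of 115 to 123 of 140 calls (Wilson intervals 2.41 to 10.9% and 81.4 to 92.3%, adjusted p = 1.81e-42 by Fisher's exact test). Depth was doubled at 102845495, so its p-value and intervals may be too small and too narrow. This CpG was still called higher with calls halved there. The intron also holds Mir615, a microRNA gene, whose hairpin contained 2 other CpGs with means of 7% and 14.8%, neither of them called.

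Hoxc6 marked the boundary. In its first coding exon, 4 other CpGs from 102840093 to 102840123 were at 7.59% to 9.27% in Dnmt1+/+ and at 9.09% to 20.8% in Dnmt1-/-, and 2 of the 4 were called higher, of which 1 was called with doubled calls halved. In coding exon 2, which holds the homeodomain, 7 CpGs averaged 17.4% and 63.2% and all 7 were called higher. The means of the first coding exon were 8.16% and 15.3%, so that the difference was 7.10 points there and 45.8 points in coding exon 2. In the 3′ UTR, 4 CpGs averaged 20.6% and 32.3%, and 2 were called higher. Depth was doubled at 1 of these 2, at 102841855, which was not called with calls halved there. Upstream of the gene, at 102838488, 102838521 and 102838523, 3 CpGs with 13 to 26 calls in each library also were called higher, at 61.5%, 47.1% and 47.1% in Dnmt1-/-. With calls halved at every CpG, only the CpG at 102838488 was still called.

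**Figure D3:**
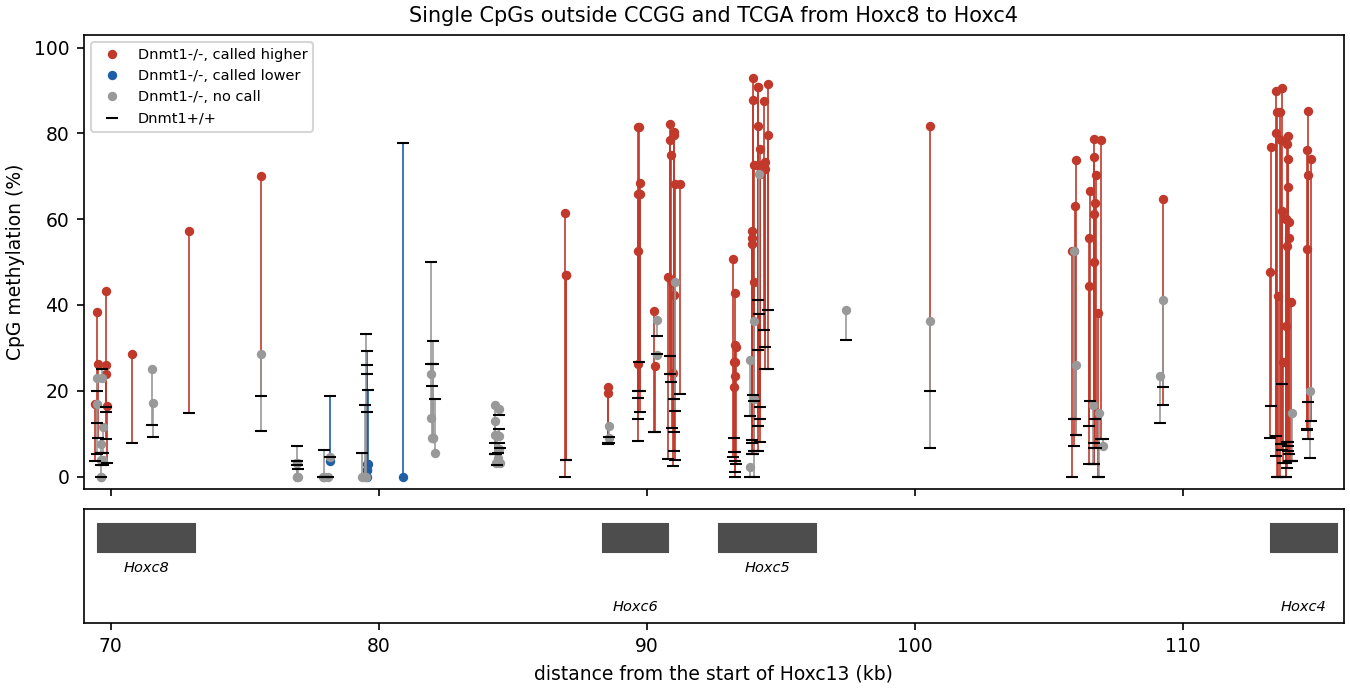
Methylation of single other CpGs from Hoxc8 to Hoxc4 (vertical axis, percent of calls) against distance from the start of Hoxc13 (horizontal axis, kb); black dashes are the Dnmt1+/+ library, circles the Dnmt1-/- library, joined by a line whose colour gives the call. Of the 114 CpGs from Hoxc6 onwards, 93 are called higher and 0 lower.

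Levels in Dnmt1-/- were also higher between these genes. The 12 other CpGs between Hoxc6 and Hoxc5 went from a mean of 13.7% to 61.3%, and 11 were called higher. Between Hoxc5 and Hoxc4, 26 CpGs averaged 9.81% and 51.1%, and 17 were called higher at a median depth of 33.0 and 18.5 calls. The CpG at 102858231, at base 104 of the printed stretch, went from 5 of 76 to 37 of 47 methylated calls (adjusted p = 2.30e-15 by Fisher's exact test). From Hoxc6 to Hoxc4, 86 of 114 CpGs lay between 20% and 80% in Dnmt1-/-, 18 were at 80% or more and 10 at 20% or less.

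Hoxc8, the next gene towards the posterior end, differed less. Within 1 kb of its start (102821053), 16 other CpGs went from a mean of 8.79% to 17.6%, and 7 were called higher. These 7 formed 2 blocks, 3 CpGs around the start and 4 CpGs from 102821363 to 102821396, where depth was about 2 times that of neighbouring CpGs. With those calls halved, 6 of the 7 were called, and with calls halved at every CpG, 3. At 102821368, 30 of 186 calls were methylated in Dnmt1+/+ and 84 of 194 in Dnmt1-/-. Between the blocks, 7 CpGs from 102821160 to 102821258 were not called, at 25% or less in Dnmt1+/+ and 23.1% or less in Dnmt1-/-. In the body of the gene, 4 CpGs averaged 10.9% and 32.0% and 2 were called higher, and 0 with calls halved at every CpG. The difference in the body was 21.1 points over these 4 CpGs and 9.43 points over all 11 CpGs, those in CCGG or TCGA included.

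Between Hoxc8 and Hoxc6, the direction was mixed. Of 41 other CpGs, 4 were called higher and 7 lower, and the means were 14.1% in Dnmt1+/+ and 10.7% in Dnmt1-/-. Near an alternative start of Hoxc6 at 102830960, 8 CpGs averaged 21.3% in Dnmt1+/+ and 1.07% in Dnmt1-/-. The 5 of them from 102831087 to 102831123 were called lower, at 15.2% to 29.3% in Dnmt1+/+ with 99 or 100 calls and at 0.0% to 2.86% with 140 calls. Depth was doubled at all 5, and all 5 were still called with calls halved there. At a further alternative start, 102828688, 9 CpGs were low in both libraries (2.78% and 0.687%). The highest CpG of the cluster outside CCGG and TCGA in Dnmt1+/+ lay between them and Hoxc6, at 102832446, with 14 of 18 methylated calls, against 0 of 12 in Dnmt1-/-.

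The promoter and first coding exon of Hoxc9 were low in both libraries. Within 1 kb of its start (102807463), 26 other CpGs had means of 12.1% in Dnmt1+/+ and 10.1% in Dnmt1-/-, with 1 called higher and 2 lower. Its first coding exon was at 5.31% and 1.55% over 20 CpGs, and 5 of these were called lower, and 3 with calls halved at every CpG. The intron, which overlaps the sequence within 1 kb of the start, was at 24.5% and 12.5% over 6 CpGs, of which 1 was called lower. Depth was doubled at that CpG, which was not called with calls halved there. The 3′ UTR was at 2.78% and 23.8% over 3 CpGs with median depths of 12 and 14 calls, and none was called. Between Hoxc9 and Hoxc8 5 other CpGs were measured away from promoters, at 8% to 12.5% in Dnmt1+/+ and 4% or less in Dnmt1-/-. Between Hoxc10 and Hoxc9, 14 other CpGs averaged 11.5% and 9.77%, and the 3 of them in the hairpin of Mir196a-2, a microRNA gene whose product targets Hox transcripts, were at 11.9% and 15.9%.

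Of the promoters, that of Hoxc10 was lowered the most in Dnmt1-/-. Within 1 kb of its start (102797227), 19 other CpGs averaged 25.3% in Dnmt1+/+, the highest of the 9 promoters, and 7.94% in Dnmt1-/-, with 6 called lower and 1 higher. With calls halved at every CpG, 3 were called lower and 0 higher. The difference was greatest next to the start. The window from 102797001 to 102797500 went from 40.7% to 2.04% over 7 CpGs, at a median depth of 26.0 and 21.0 calls. CpGs of a window share reads, so these 7 are not independent. The next window went from 21.2% to 11.5% over 6 CpGs. Within 500 bp of the start, the difference was 27.8 points in the same direction, over 10 CpGs. The CpG at 102797326 had 19 of 26 methylated calls against 0 of 21 (intervals 53.9 to 86.3% and 0.0 to 15.5%, adjusted p = 7.77e-07 by Fisher's exact test). In the intron, the CpG at 102799250 fell from 22 of 56 to 1 of 46 calls (adjusted p = 1.55e-05 by Fisher's exact test), while the intron as a whole was at 19.0% and 17.2% over 7 CpGs.

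Hoxc11, Hoxc12 and Hoxc13, the most posterior genes, had low promoters in both libraries. At Hoxc11, the mean of 24 other CpGs was 5.31% and 1.81%, with 6 called lower and 0 higher. With calls halved where depth was doubled, 3 of these 6 were called, and with calls halved at every CpG, 0. At Hoxc12, 7 CpGs averaged 4.59% and 1.43% and none was called. At Hoxc13, 52 CpGs averaged 7.72% and 2.47%, with 6 called lower and 0 higher, and no CpG exceeded 9.09% in Dnmt1-/-. Of these 6, 4 were called with calls halved where depth was doubled and 2 with calls halved at every CpG. The pooled Wilson intervals did not overlap at Hoxc13 (6.20 to 7.98% and 1.43 to 2.39%) or at Hoxc11 (5.03 to 6.78% and 1.38 to 2.46%), but did at Hoxc12. These intervals treat all calls as independent, although neighbouring CpGs share reads, so they may be too narrow.

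Further into the same genes, the second coding exons of Hoxc11 and Hoxc13 were not lower. In Hoxc11, coding exon 1 was at 5.43% and 1.89% over 23 CpGs, and coding exon 2 at 7.04% and 14.6% over 8 CpGs, of which 2 were called higher, and 0 with calls halved at every CpG. In Hoxc13, coding exon 1 was at 8.06% and 1.80% over 37 CpGs, and coding exon 2 at 9.71% and 11.1% over 11 CpGs, of which 3 were called higher, and 2 with calls halved at every CpG. At Hoxc12, the 5 CpGs of coding exon 2 and the 3′ UTR were at 12.0% to 55.6% in Dnmt1+/+ and 12.5% to 37.5% in Dnmt1-/-, and none was called.

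The intervals among the posterior genes were mixed on a small scale. Between Hoxc13 and Hoxc12, the mean of 14 other CpGs was 7.15% in Dnmt1+/+ and 16.8% in Dnmt1-/-, but this rested on CpGs of low depth. The 4 CpGs from 102764819 to 102765010 were called higher, with 4 to 6 methylated calls of 11 to 13 in Dnmt1-/-, and none of them was called with calls halved at every CpG. At a depth of at least 20 in both libraries, 8 CpGs were left and the Dnmt1-/- library was lower by 6.74 points. Between Hoxc12 and Hoxc11, 60 CpGs averaged 11.4% and 10.6%, with 7 called lower and 4 higher. In this interval the window from 102773501 averaged 13.2% in Dnmt1+/+ and 0.853% in Dnmt1-/- over 16 CpGs, and the window from 102770001 averaged 14.3% and 21.9% over 15. With 1 called CpG taken per window, at a depth of at least 20, the third largest fall was at 102773571. This CpG went from 12 of 36 to 0 of 44 calls (adjusted p = 9.70e-05 by Fisher's exact test). The antisense gene Gm16258, also named Hotair, is known for a long non-coding RNA that acts on other Hox genes, and its 7 other CpGs averaged 7.65% and 11.7%. Between Hoxc11 and Hoxc10, 20 CpGs averaged 21.0% and 20.2% and none was called.

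**Figure D4:**
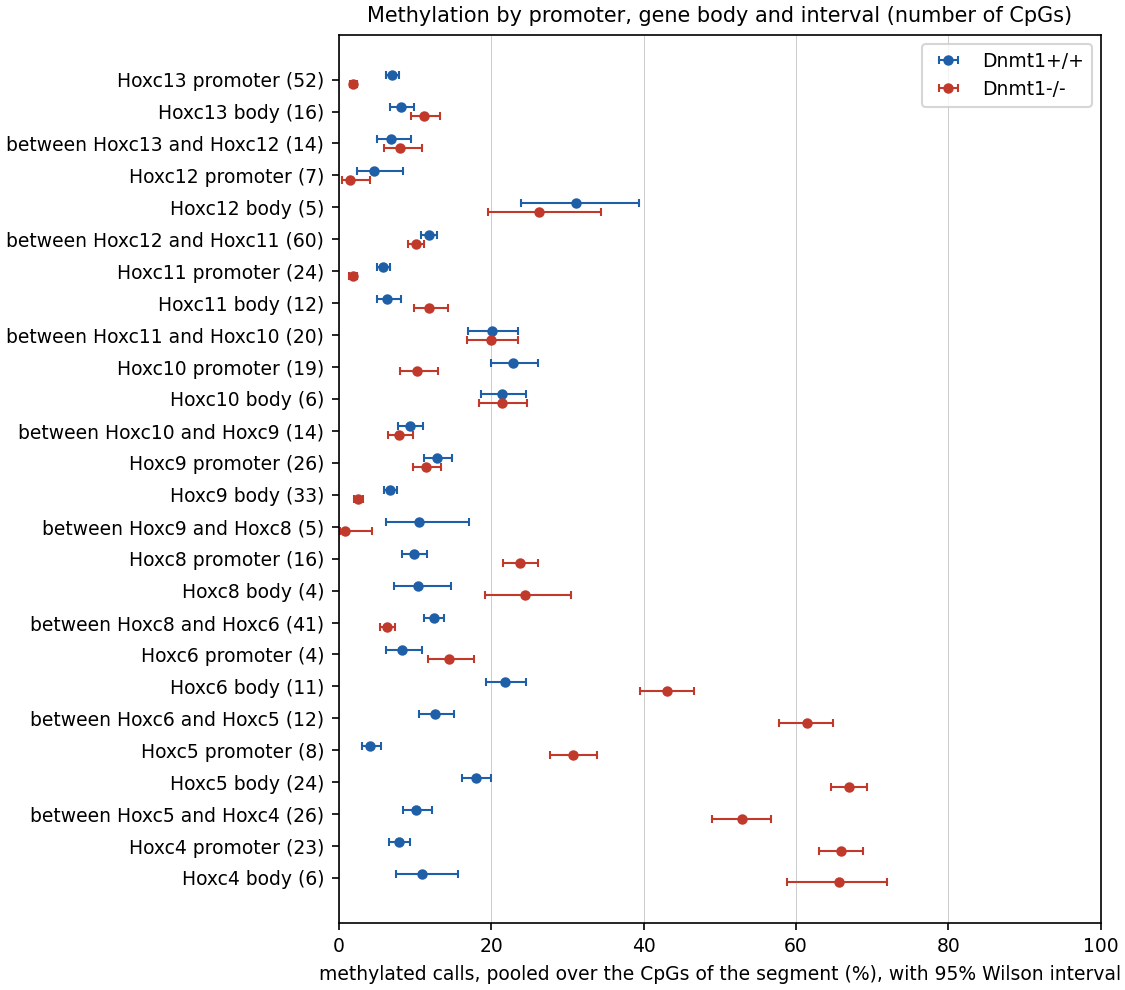
Methylated calls pooled over the other CpGs of each promoter (within 1 kb of the start), gene body and interval of HoxC (horizontal axis, percent, with 95% Wilson intervals), for the Dnmt1+/+ library in blue and the Dnmt1-/- library in red, with the number of CpGs in brackets. The gap between red and blue is widest from the body of Hoxc6 downwards, for example 7.86% and 65.9% at the promoter of Hoxc4, and the blue point is higher at the promoter of Hoxc10.

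CpGs in CCGG or TCGA were 232 of the 720 measured (32.2%), compared with 15.2% of the CpGs in the sequence of the cluster. They averaged 55.4% (Dnmt1+/+) and 59.6% (Dnmt1-/-), far over the 11.4% and 20.4% of other CpGs beside them, as at the Hoxc11 stretch above. The source of this offset was not tested. In this class 25 CpGs were called higher (10.8%, against 0.245% of the class genome-wide) and 7 lower (3.02%, against 43.1%). From Hoxc6 to Hoxc4 their mean was 55.2% in Dnmt1+/+ and 74.4% in Dnmt1-/- over 57 CpGs, with 18 called higher and 0 lower. Before Hoxc6 it was 55.5% and 54.8% over 175 CpGs, with 7 called in each direction.

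HoxA, HoxB and HoxD are given for comparison, without a test between clusters. In Dnmt1+/+ the mean of other CpGs was 12.4% in HoxA, 12.7% in HoxB and 12.3% in HoxD, close to the 11.4% of HoxC. In Dnmt1-/- it was 15.04% in HoxA, 21.5% in HoxB and 20.1% in HoxD, against 20.4% in HoxC. The share of other CpGs called higher was 25.2% in HoxC, 20.4% in HoxA, 29.0% in HoxB and 19.7% in HoxD, and the share called lower was 8.81%, 14.4%, 12.1% and 7%. Windows higher by 25 points or more were 22.5% of those in HoxC, 18.2% in HoxA, 29.4% in HoxB and 33.3% in HoxD. Thus all 4 clusters had more CpGs called higher than lower, and HoxC lay within the range of the other clusters for each of these shares.

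**Figure D5:**
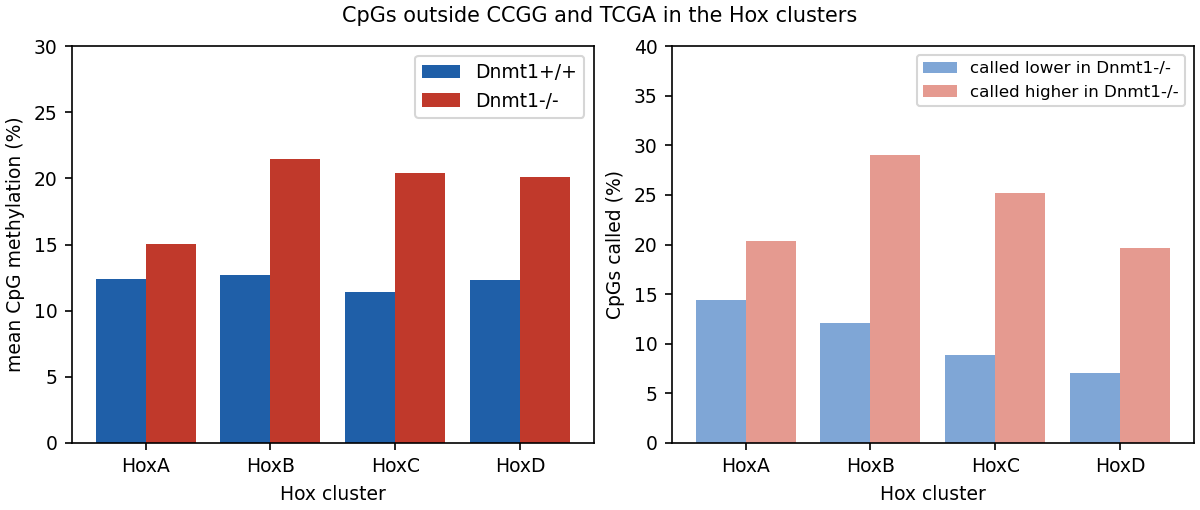
Other CpGs of the 4 Hox clusters, with mean methylation in each library on the left (percent) and the share of CpGs called lower or higher in Dnmt1-/- on the right (percent). HoxC has a mean of 11.4% and 20.4%, and 25.2% of its CpGs are called higher and 8.81% lower.

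Promoters of related genes were read within 1 kb of the start of each annotated gene. Of 15173 gene starts that had 5 or more other CpGs, the Dnmt1-/- mean exceeded the Dnmt1+/+ mean by 25 points in 0.211% and fell short of it by as much in 11.3%. By this measure, 1 of 8 Hoxc promoters was higher (Hoxc5) and 0 were lower, because the annotated start of Hoxc4 is that of its longer transcript. Of 24 promoters from HoxA, HoxB and HoxD, 5 were higher and 0 lower, up to Hoxb4 with a difference of 60.9 points. Of 11 genes of PRC2, including the catalytic subunit Ezh2 and the core subunits Eed and Suz12, 0 were higher and 1 was lower. That gene was Aebp2, an accessory subunit, at 53.8% and 16.8%. Of 8 genes for Hox cofactors, such as Meis1 and Pbx3, which bind DNA together with Hox proteins, 0 differed by as much in either direction, and their highest mean in Dnmt1-/- was 2.61%.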

How the data were processed

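Genomic DNA of 1 Dnmt1+/+ and 1 Dnmt1-/- MEF line, grouped by the genotype in their labels, was analysed by RRBS. A sequencing provider carried out quality control and mapping, for which the submitters' processing notes name Bismark and mm9; the version and the conversion rate are not given in the sources used here. In the deposited table, depth is the count of methylation calls made at a CpG, strands merged, and the authors left out CpGs with fewer than 10 calls in either library. The authors' percent values are the methylated share of these calls. Percent multiplied by depth returned whole methylated calls (to within 1e-06 of a call), and positions, counted from 0 in the table, were moved to 1-based coordinates.

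CpGs of HoxC were taken by position and assigned to genes with GENCODE vM1. A promoter was the sequence within 1 kb of the start of the coding transcript with the longest coding sequence. Means count each CpG once. Fisher's exact test (two-sided) was applied to each CpG, adjusted by the Benjamini-Hochberg method over the whole table (threshold 0.05), and was tested on simulated calls beforehand. It compares libraries, not genotypes. Windows of 500 bp needed 5 other CpGs, and a difference of 25 points counted as a change, with no p-value, since CpGs of a window share reads. Low and high were 20% or less and 80% or more.

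The text names all Hoxc genes, the non-coding genes Hotair, Mir196a-2 and Mir615, every changed window, and the 3 largest rises and falls among called other CpGs with a depth of at least 20, 1 per window. The cluster, its members and the gene lists were chosen with earlier results of these data known. In HoxC the median CpG had 50 calls (Dnmt1+/+) or 40 calls (Dnmt1-/-), at which 0 methylated calls allow up to 6% and 7.5% (3 counts). Both these limits and the Wilson intervals (95%) take in counting error alone, as reads copied by PCR carried no molecular identifiers and so need not be independent. Intervals pooled over CpGs also count calls from CpGs that share reads as independent. Halving of calls was chosen after seeing the data, because depth was doubled at some CpGs. Software was numba 0.67.0, scipy 1.17.1, matplotlib 3.10.9, pandas 2.3.3, numpy 2.4.6 and python 3.11.15. A sequence chosen in the same way as those printed is not reported here. Columns of other samples were not present, and histone and expression data were not analysed here.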

Additional observations from a re-analysis of the deposited data

How the results depend on the processing

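No paired analysis was possible because the design holds 1 library a genotype. Mean methylation of other CpGs in HoxC was 8.98 points higher in Dnmt1-/-, and the difference was 6.62 points at a depth of at least 20 in each library, 7.43 with all CpGs and 7.09 with calls pooled over CpGs. The counts of CpGs called higher and lower in Dnmt1-/-, 148 and 50, were 31 and 3 when each CpG was thinned to 10 calls (against 0.0359% and 16.7% of all CpGs genome-wide), and 87 and 19 when calls were halved at every CpG, a setting chosen after seeing the data (against 0.147% and 26.0%). CpGs called lower numbered 18 with a difference of at least 25 points required and 30 at an adjusted p under 0.01, whereas CpGs called higher numbered 111 under each. The share of all CpGs called genome-wide was not computed under these settings, so these counts have no background. With at least 10 CpGs per window, 14 windows were left, with 3 higher and 0 lower. The share of all windows genome-wide was not computed for that minimum. Under the other alternatives, the counts of CpGs and windows stayed within 1.5 times of those given.

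Among 26 promoters, bodies and intervals, 11 moved by more than their counting error with all CpGs and 7 at a depth of at least 20. With promoters of 500 bp either side, 5 of 17 moved, and the promoter of Hoxc5 had no measured CpG left. Signs turned at the body of Hoxc13 with the narrower promoters (lower by 0.353 points) and between Hoxc13 and Hoxc12 at the higher depth. The absence of a second library of either genotype limits every comparison.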
